A study of Mus musculus with 6 samples.

Results

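Hox cluster genes were examined in AtT-20, a corticotroph tumour line from the mouse pituitary, after knockdown of Dnmt1, the enzyme that maintains DNA methylation when DNA is copied. Members were all probe sets, dim ones included, whose annotation names a single gene called Hoxa, Hoxb, Hoxc or Hoxd with a number and nothing after it. This gave 48 probe sets for 33 genes, out of 34945 probe sets for 18193 genes with a single symbol on an array of 45101 probe sets. The 3 arrays labelled siDNMT1 came from cells given 20 nM of an siRNA against Dnmt1 repeatedly until day 8, and the 3 arrays labelled siNT from cells given 20 nM of a non-targeting siRNA on the same schedule. Both groups are the same cell line and carry the repeat numbers 1 to 3, and the study's design text states that the procedure was performed 3 times independently. A single tumour line stands for the corticotroph here, and DNA methylation itself was not among the measurements used.

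Hox genes encode homeodomain transcription factors that give cells their position along the body axis. They lie in 4 clusters, in which a gene's place, counted as its paralogue number, follows the order in which the genes are used from the head end to the tail end. The anterior pituitary arises from oral ectoderm at the head end, outside the usual territory of Hox expression, and Polycomb and trithorax proteins are the best known keepers of the silent and the active state of Hox clusters. DNA methylation is known to act on Hox promoters in tumours and in ageing tissue.

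The mouse RefSeq table (GRCm38.p6) lists 39 Hox genes, and all 33 symbols of the array are among them. The other 6 had no probe set that met the rule and were not analysed here. The members comprised 16 probe sets for 9 genes of the Hoxa cluster on chromosome 6, 11 for 9 genes of Hoxb on chromosome 11, 11 for 7 genes of Hoxc on chromosome 15 and 10 for 8 genes of Hoxd on chromosome 2. Several probe sets measured each of 11 genes. By their RefSeq spans, 10 Hox genes overlap another Hox gene, among them Hoxa3, Hoxa4, Hoxa5, Hoxb3, Hoxb4 and Hoxd10, so signals from transcript shared between neighbours cannot be told apart for these genes.

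The stretches upstream of 4 members are shown because Dnmt1 acts on CG dinucleotides. The choice was limited to genes with a promoter window in the RefSeq set used, which held none for Hoxc6, Hoxc10 or Hoxb7. Hoxa5, Hoxa9 and Hoxd8 were measured above background, and Hoxd1 had the smallest p of all members. Each line holds the 250 bases before the annotated start in RefSeq (GRCm38.p6), 5' to 3' on the gene's strand, with CG in capitals. They lie at chr6:52204588-52204837 (minus strand, Hoxa5), chr6:52227371-52227620 (minus strand, Hoxa9), chr2:74704365-74704614 (plus strand, Hoxd8) and chr2:74762730-74762979 (plus strand, Hoxd1).
Hoxa5: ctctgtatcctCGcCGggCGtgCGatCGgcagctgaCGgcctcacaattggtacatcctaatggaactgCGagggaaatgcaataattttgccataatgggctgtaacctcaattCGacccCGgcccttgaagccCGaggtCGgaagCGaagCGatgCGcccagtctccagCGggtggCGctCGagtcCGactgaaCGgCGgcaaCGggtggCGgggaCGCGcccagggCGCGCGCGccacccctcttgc
Hoxa9: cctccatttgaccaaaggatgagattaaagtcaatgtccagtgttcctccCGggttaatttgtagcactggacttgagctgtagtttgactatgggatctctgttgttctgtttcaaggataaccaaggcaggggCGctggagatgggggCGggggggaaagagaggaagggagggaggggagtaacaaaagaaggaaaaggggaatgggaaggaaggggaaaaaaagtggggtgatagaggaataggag
Hoxd8: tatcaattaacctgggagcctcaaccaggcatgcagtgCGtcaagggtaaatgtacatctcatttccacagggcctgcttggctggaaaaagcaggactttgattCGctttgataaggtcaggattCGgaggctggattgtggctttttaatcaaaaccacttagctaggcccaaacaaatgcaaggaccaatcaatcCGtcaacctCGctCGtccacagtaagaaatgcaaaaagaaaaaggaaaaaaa
Hoxd1: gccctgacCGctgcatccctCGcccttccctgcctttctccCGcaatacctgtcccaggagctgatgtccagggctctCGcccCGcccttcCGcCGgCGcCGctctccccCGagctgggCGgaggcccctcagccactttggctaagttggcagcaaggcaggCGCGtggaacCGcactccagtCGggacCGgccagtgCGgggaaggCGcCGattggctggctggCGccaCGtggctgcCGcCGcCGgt

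The Hoxa5 window held 28 CG and the Hoxd1 window 24, whereas Hoxa9 held 3 and Hoxd8 held 6. CG reads the same on both strands. At least as many CG as in the Hoxa5 window were found in 7.61% of the 32841 promoter windows of this length in the table. The share with at least as many was 11.98% for the Hoxd1 window, 50.4% for Hoxd8 and 71.0% for Hoxa9. The table matched 19 of the 33 genes with 21 windows, which had a median of 13 CG against 6 over all windows. The 4 sequences therefore cover both CG-rich and CG-poor upstream windows, and bases after the start were not counted. Whether these CG are methylated in AtT-20 cells was not measured.

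Dnmt1 itself was examined first, since it was the target. On its brightest probe set the scaled signals were 541, 701 and 619 on control arrays 1 to 3 and 214, 142 and 301 on knockdown arrays 1 to 3. The groups did not overlap, and Dnmt1 differed by -1.54 (SE 0.24) on the log2 scale. The exact two-sided permutation test gave p = 0.1, the smallest that 3 arrays against 3 allow, and the limma adjusted p over 45037 probe sets was 0.445. Only with dim probe sets left out and the repeat number as a block did Dnmt1 pass the threshold (limma adjusted p = 0.0211), and with the block alone it stood at 0.248.

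Levels were read against an empirical background, because no detection calls were among the data used. The background of each array was the 95th percentile of 81 probe sets of 73 chemosensory receptor genes (olfactory, vomeronasal, taste and trace amine receptors), which are not expected to be transcribed in a pituitary line. On the scaled signals it lay at 33.9 to 48.4 over the 6 arrays. Of the receptor probe sets, 0 of 81 exceeded it on all 6 arrays, and 71 did so on no array. Probe sets bind their targets with different strength, so a position above background is no ranking of one gene against another.

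Most Hox probe sets were at background. Of the 48, 8 exceeded the background on all 6 arrays, 11 on some arrays and 29 on none. The 8 are 16.7% of the members, against 35.6% of all probe sets with a single symbol. They stood for 5 genes, Hoxa5, Hoxa9, Hoxc6, Hoxc10 and Hoxd8, each from the middle or the tail end of its cluster. On single arrays 10 to 14 Hox probe sets exceeded the background, or 2 on every array for Hoxd, 3 to 5 for Hoxc, 4 to 7 for Hoxa and 0 to 2 for Hoxb.

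**Figure D1:**
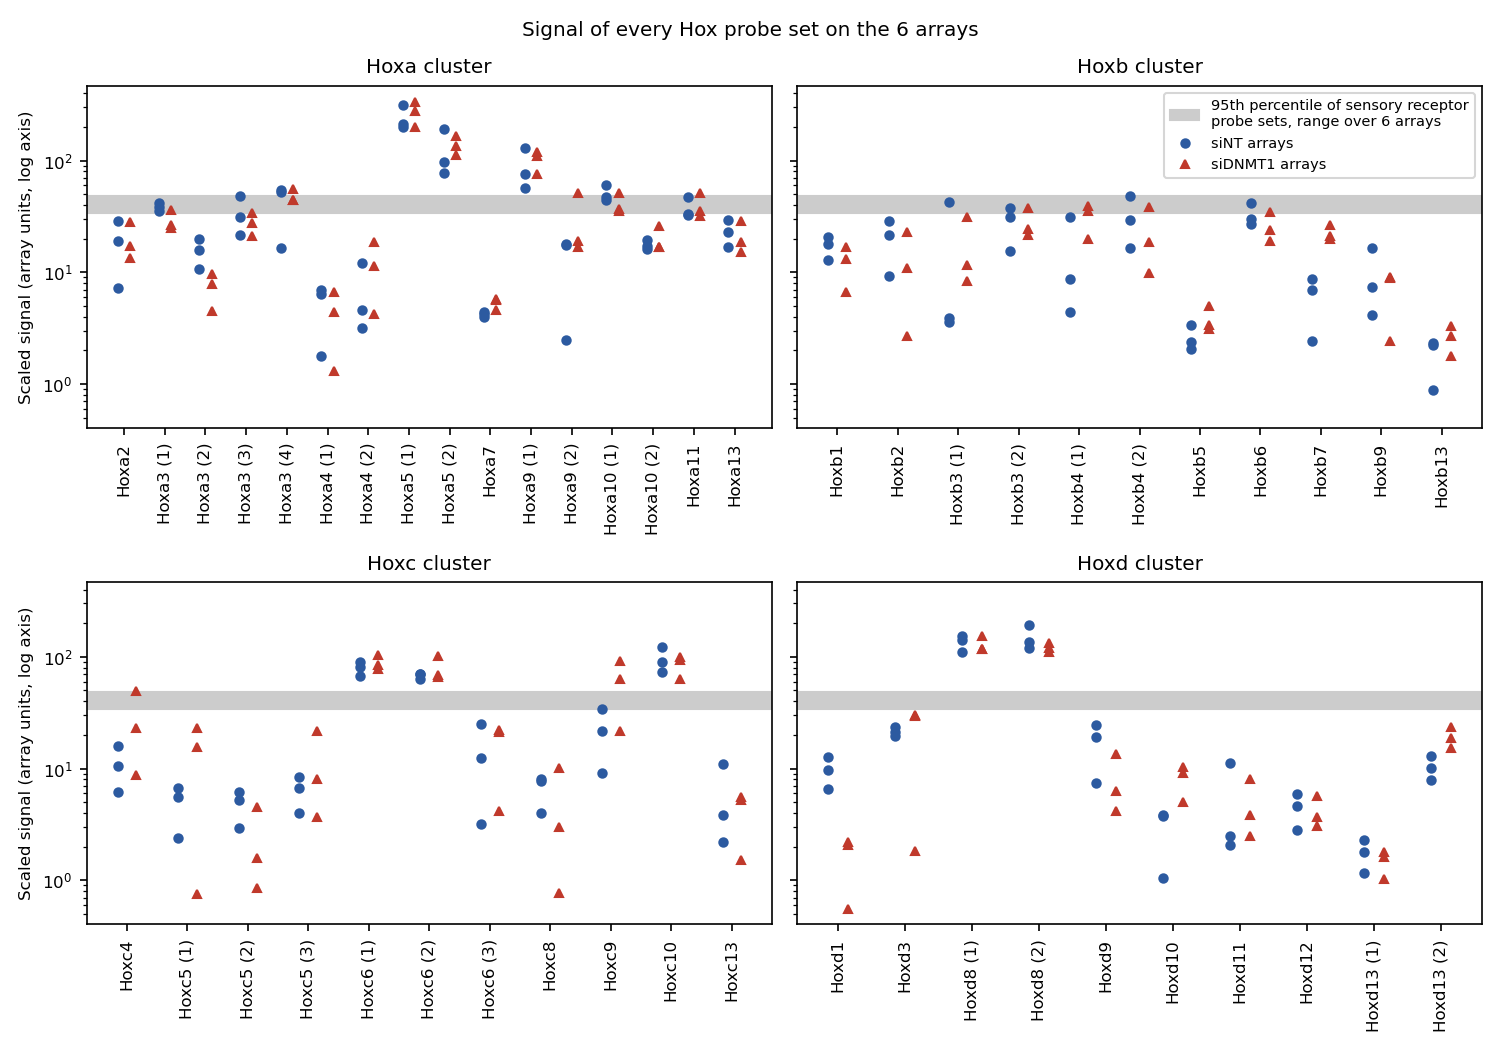
Scaled signal (log axis) of each of the 48 Hox probe sets on the 3 siNT arrays (circles) and the 3 siDNMT1 arrays (triangles), by cluster and paralogue number, with numbers in brackets telling probe sets of one gene apart. The grey band is the range over the 6 arrays of the background, 33.9 to 48.4, and only Hoxa5, Hoxa9, Hoxc6, Hoxc10 and Hoxd8 have probe sets above it on all arrays.

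Hoxa5, a regulator of lung and axial skeleton development, was clear of the background on both of its probe sets. On 1443803_x_at it read 211, 316 and 201 on control arrays 1 to 3 and 278, 198 and 337 on knockdown arrays 1 to 3. The groups overlapped fully, with control array 2 high and knockdown array 2 low. The difference was 0.15 (SE 0.23), with a 95% confidence interval of -0.36 to 0.67. On 1448926_at the signals were 77.5, 191 and 96.4 in the control and 136, 167 and 112 in the knockdown. Both arrays of repeat 2 were high on this probe set, and the difference was 0.26 (SE 0.30, 95% confidence interval -0.41 to 0.93). The _x_at ending marks a probe set that can also bind other transcripts, and the probe set without it was above background too.

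Hoxa9, known for its part in blood stem cells and leukaemia, was above background on 1421579_at. Its control signals were 57.2, 76.1 and 129, and its knockdown signals were 120, 109 and 76.1. The difference was positive in repeats 1 and 2 (1.00 and 0.49) and negative in repeat 3 (-0.73), which left a mean of 0.26 (SE 0.29, 95% confidence interval -0.40 to 0.91). The second Hoxa9 probe set, 1455626_at, was above background on 1 array only, knockdown array 2. It read 17.8, 17.5 and 2.50 in the control and 19.0, 50.9 and 17.0 in the knockdown, a difference of 0.96 (SE 0.55) that was 0.44 without control array 3 and 0.52 without knockdown array 2.

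Of the Hoxc cluster, Hoxc6 and Hoxc10 were above background. Hoxc6, a gene of the thoracic axis, read 89.9, 80.8 and 67.2 in the control and 77.3, 83.8 and 104 in the knockdown on 1427361_at, and its x-type probe set 1427362_x_at read 69.9, 62.8 and 70.6 against 66.4, 68.1 and 102.0. On both the groups overlapped and knockdown array 3 was the highest. The differences were 0.15 (SE 0.21) and 0.18 (SE 0.23), with 95% confidence intervals of -0.32 to 0.61 and -0.33 to 0.69. The third Hoxc6 probe set, 1427454_at, exceeded the background on no array. Hoxc10, of the hindlimb and lumbar region, read 72.5, 123 and 89.0 in the control and 63.3, 93.5 and 100.2 in the knockdown. Its difference was -0.13 (SE 0.25, 95% confidence interval -0.70 to 0.43).

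Hoxd8 was the single gene of its cluster above background, on both of its probe sets. On 1431099_at it read 110, 154 and 142 in the control and 117, 153 and 117 in the knockdown, a difference of -0.067 (SE 0.19, 95% confidence interval -0.50 to 0.37). On 1433638_s_at it read 119, 192 and 134 against 111, 120 and 134, a difference of -0.25 (SE 0.20, 95% confidence interval -0.71 to 0.20). The groups overlapped on both, and the second value rests mostly on repeat 2, at -0.65. None of the 8 probe sets passed the threshold (limma adjusted p = 1.00 for each, 0.835 to 0.962 with the repeat number as a block).

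**Figure D2:**
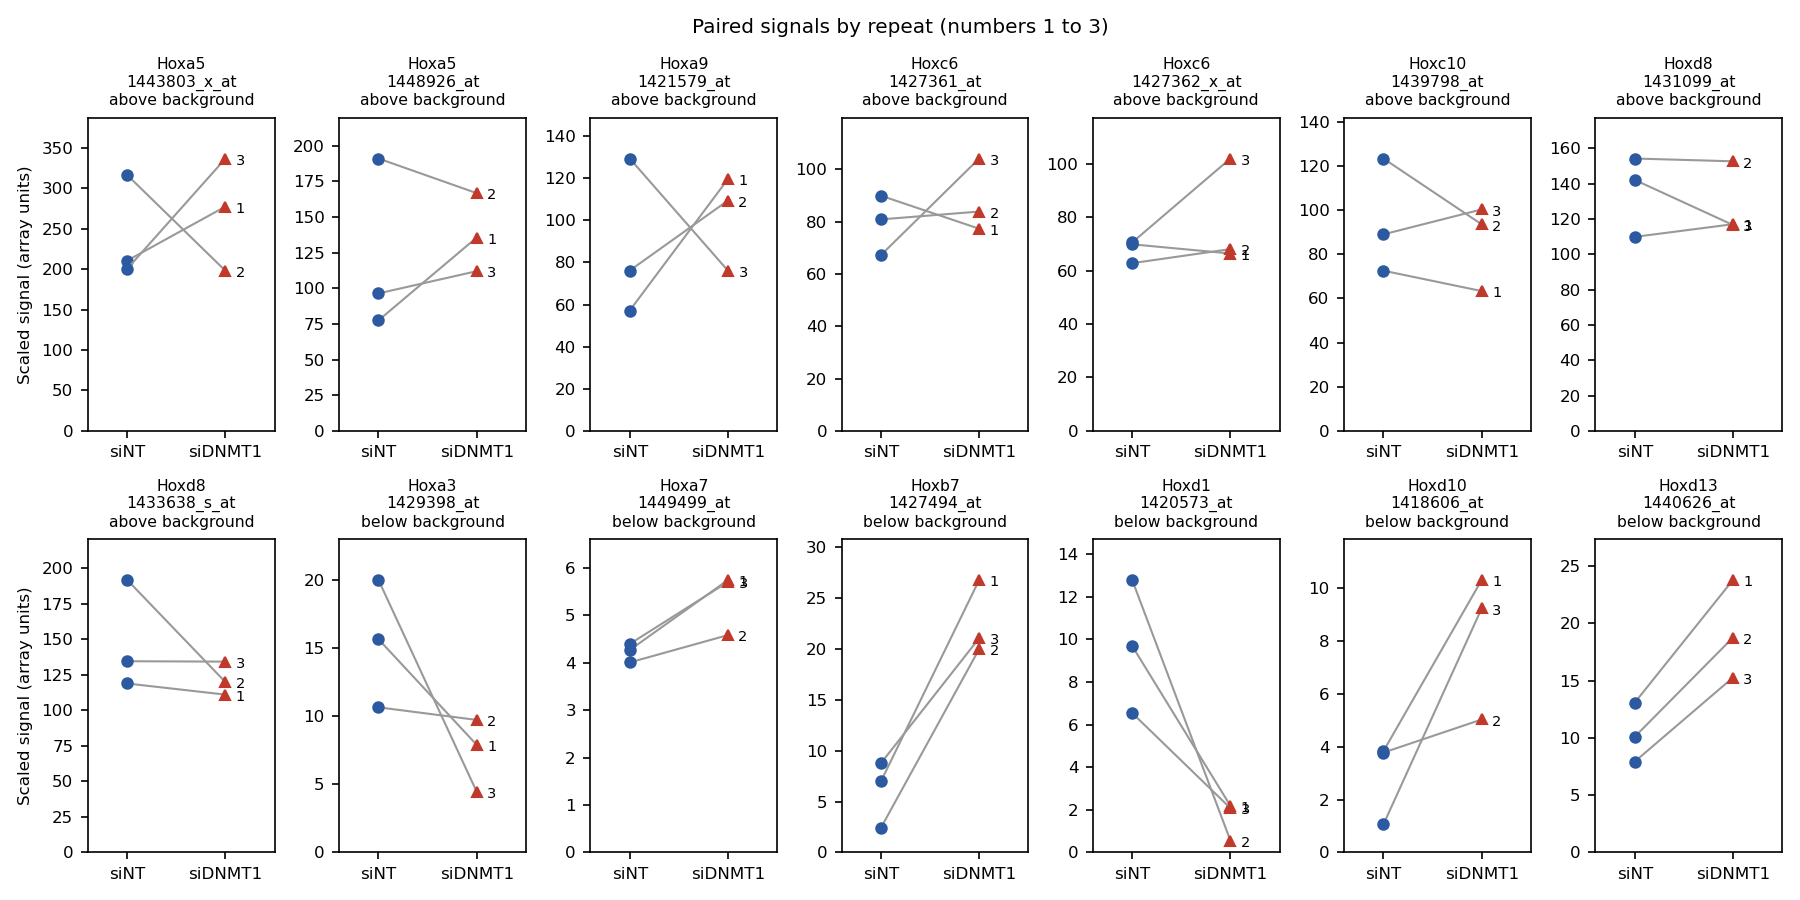
Scaled signals of the 8 Hox probe sets above background on all 6 arrays and of the 6 whose groups do not overlap, with a line joining the siNT (circle) and siDNMT1 (triangle) array of each repeat, numbered 1 to 3. Each panel starts at 0 and has its own scale: the first 8 panels show crossing or flat lines at signals of 57.2 to 337, and the last 6 show parted groups at signals under 27.

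Just under the background criterion lay Hoxa10, Hoxa3 and Hoxa11. Hoxa10, of the uterus and lumbar axis, exceeded the background on 5 of 6 arrays on 1431475_a_at, with a difference of -0.28 and lower knockdown values in 3 of 3 repeats. Hoxa3, a gene of the thymus and parathyroid, did so on 4 arrays on 1452421_at and on at most 1 array on its other 3 probe sets. Hoxa11 did so on 3 arrays, with a difference of 0.050. All other members exceeded the background on 2 arrays or fewer.

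In the Hoxb cluster no probe set was above background on all arrays. Of its 11 probe sets, 8 exceeded the background nowhere and 3, for Hoxb3 and Hoxb4, on 1 or 2 arrays. Median percentiles of the Hoxb probe sets among all probe sets of an array ran from 9.14 for Hoxb13, the gene at the tail end, to 52.8 for Hoxb6. By paralogue number, 0 of 11 probe sets of groups 1 to 3, 6 of 20 of groups 4 to 8 and 2 of 17 of groups 9 to 13 were above background on all arrays.

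Of 22 measured neighbours on a list of genes flanking the clusters, 13 were above background on all 6 arrays and 3 on none, namely Calcoco2, Skap1 and Evx1. Mtx2, of the mitochondrial outer membrane and next to Hoxd1, and Skap2, beside the Hoxa cluster, were above background on all arrays, whereas Hoxd1 was so on none. On the Hoxb side, Snx11, Cbx1, Nfe2l1 and Copz2 were above background, while Skap1, which lies between them and Hoxb1, was not. Of these neighbours 5 had a positive and 17 a negative difference, where 45.8% of all probe sets had a positive one, and 0 passed the threshold in either limma fit. At an unadjusted p under 0.05 there were 0 without the block and 1, Hibadh, with it. The differences with the smallest p were those of Hibadh, of valine breakdown, at -0.26 (SE 0.14), of the splicing factor gene Hnrnpa1 at 0.30 (SE 0.19), of Tax1bp1, an autophagy receptor gene, at -0.43 (SE 0.27) and of Snx11 at -0.29 (SE 0.19).

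**Figure D3:**
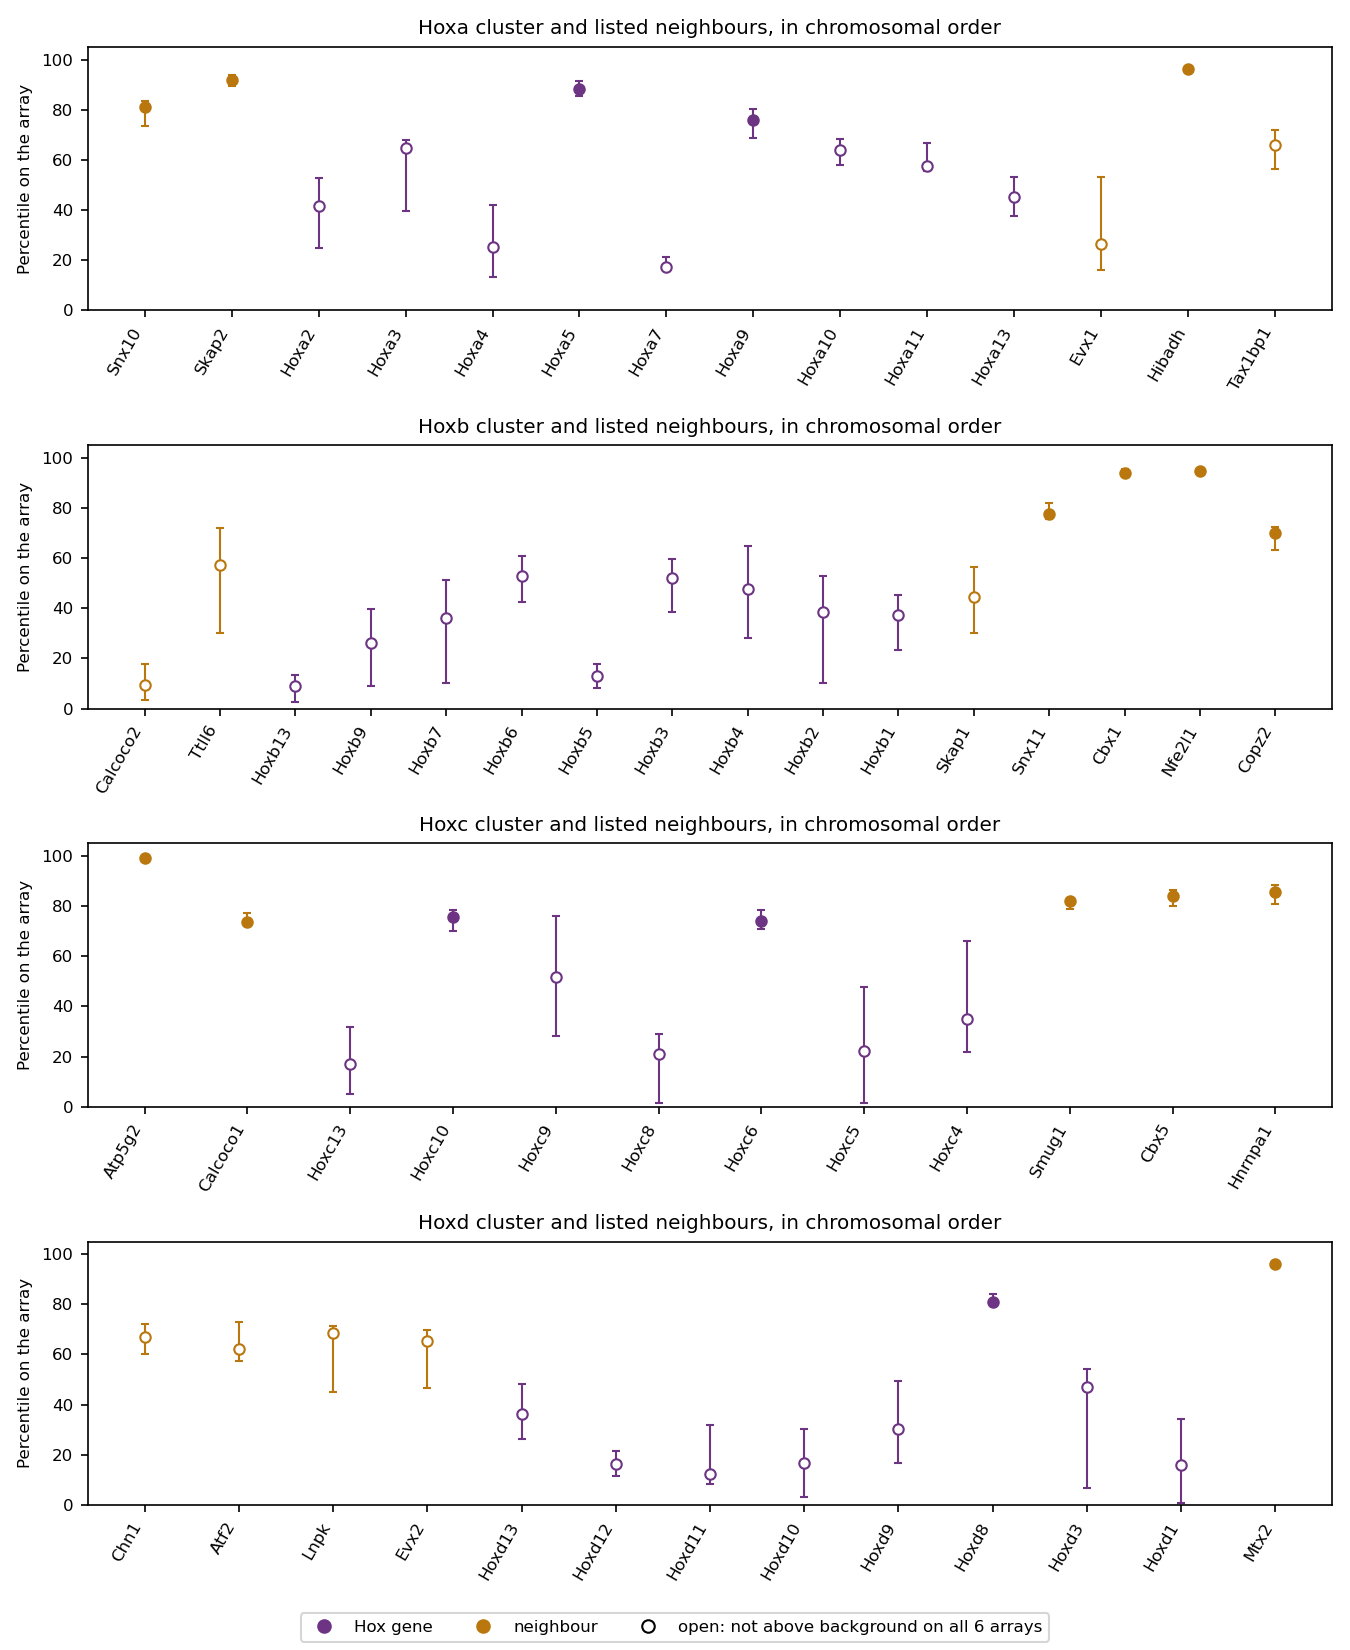
Percentile of each measured Hox gene (purple) and listed neighbour (orange) among all probe sets of an array, in chromosomal order, by its brightest probe set; points are medians and bars the lowest and highest of 6 arrays. Filled points are above background on all 6 arrays: 5 Hox genes are, in the interior of the Hoxa, Hoxc and Hoxd clusters, and none in Hoxb.

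The main comparison asked whether Hox transcripts became more or less abundant when Dnmt1 was reduced. No Hox probe set passed the threshold: limma called 0 of 48 without a block and 0 of 48 with the repeat number as a block. Over all 45037 probe sets the 2 fits called 0 (0%) and 1 (0.00222%). At an unadjusted p under 0.05 there were 4 Hox probe sets, or 8.33%, against 4.25% of all probe sets, and 4 with the block, against 6.47%. Of the 81 receptor probe sets used as background, 6 (7.41%) had such a p without the block. Higher values in the knockdown were found on 26 Hox probe sets (54.2%, against 45.8% of all probe sets) and lower ones on 22. The median difference was 0.038, against -0.029 over all probe sets. Medians were 0.13 for Hoxa, 0.025 for Hoxb, 0.18 for Hoxc and -0.061 for Hoxd. The median over all members turned to -0.00092, -0.032 and -0.013 without control array 1, knockdown array 2 or knockdown array 3, in that order. The medians of all probe sets were then -0.058, -0.036 and -0.025. The sign of the Hox median is thus not settled. It stayed above the median of all probe sets in these settings, and this gap was not tested.

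A gain from background was looked for directly. No Hox probe set was above background on all 3 knockdown arrays and on no control array (0 of 48, against 0.107% of all probe sets), and none showed the opposite pattern (0 of 48, against 0.0555%). Nearest to a gain was Hoxc9, of the thoracic and limb axis, which was above background on knockdown arrays 2 and 3 and on no control array. It read 34.2, 9.17 and 21.5 in the control and 21.7, 92.2 and 62.8 in the knockdown. Knockdown array 1 lay below control array 1, so the repeats differed in direction (-0.55, 2.75 and 1.34). The difference was 1.18 (SE 0.52, unadjusted p = 0.0482, adjusted p = 1.00 by limma).

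**Figure D4:**
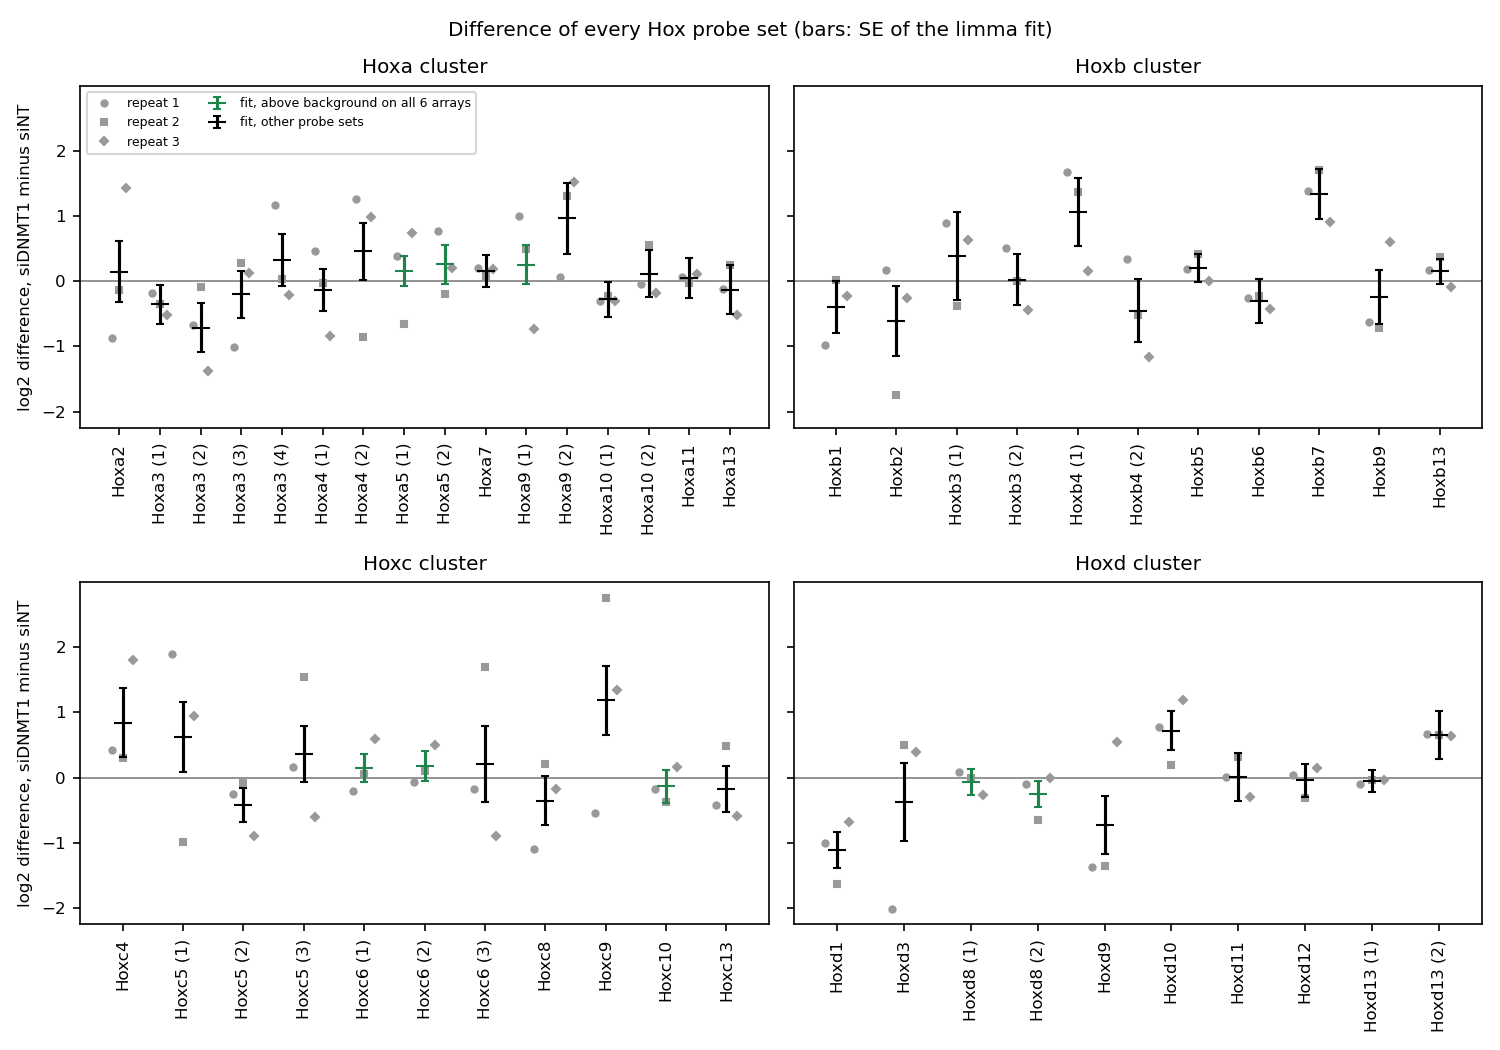
Difference of siDNMT1 minus siNT on the log2(scaled signal + pseudocount) scale for every Hox probe set, by cluster. Crosses with bars are the limma estimate and its SE (green where the probe set is above background on all 6 arrays, black otherwise), grey symbols are the repeats 1 to 3; the green estimates lie between -0.25 and 0.26, and the estimates farthest from 0 are black.

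The groups were parted on 6 Hox probe sets, none of which exceeded the background on any array. In 4 (8.33%) all knockdown signals lay above all control signals, as in 3.92% of all probe sets, and in 2 (4.17%) below them, as in 5.01%. Hoxb7, a gene of the thoracic axis, read 6.99, 2.42 and 8.76 in the control and 26.8, 20.0 and 21.0 in the knockdown. The difference was 1.33 (SE 0.39, unadjusted p = 0.00628, adjusted p = 1.00 by limma) and positive in 3 of 3 repeats, and it ran from 0.80 to 1.78 over the alternatives. A probe set annotated to both Hoxb8 and Hoxb7, which the rule leaves out, was also at background and differed by -0.057 (SE 0.39).

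Hoxd1, of the head end of its cluster and of sensory neurons, had the smallest p of all members. It read 9.69, 12.8 and 6.54 in the control and 2.19, 0.556 and 2.08 in the knockdown, with no overlap. The difference was -1.10 (SE 0.28), lower in 3 of 3 repeats, with an unadjusted p of 0.00262 and a limma adjusted p of 0.941 (0.673 with the block). All 3 knockdown signals were below the pseudocount of 5.29, so the size depends on that constant and ran from -1.88 to -0.52 over the alternatives. Hoxd10, a limb gene, read 3.83, 3.77 and 1.06 in the control against 10.3, 5.02 and 9.22, a difference of 0.72 (SE 0.30). Its control signals too lay below the pseudocount, and the difference ran from 0.34 to 1.19 over the alternatives. Hoxd13, of digits and the genital bud, on 1440626_at read 13.1, 10.1 and 7.92 against 23.8, 18.8 and 15.3, a difference of 0.65 (SE 0.37) that was nearly equal in the 3 repeats (0.66, 0.64 and 0.64). The other Hoxd13 probe set, 1422239_at, was at -0.056.

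The last 2 parted probe sets were those of Hoxa7, at 4.27, 4.01 and 4.40 against 5.75, 4.58 and 5.71, and of Hoxa3 (1429398_at), at 15.7, 10.7 and 20.0 against 7.91, 9.74 and 4.46. The Hoxa7 difference was 0.16 (SE 0.24) and that of Hoxa3 -0.71 (SE 0.37). Hoxb4, a gene used to expand blood stem cells, had a difference of 1.07 (SE 0.52) on 1451761_at and of -0.45 on its other probe set. The first was 0.65 without control array 2 and 1.62 without control array 3. Among the lower values, Hoxd1 and Hoxa3 on 1429398_at were followed in order of p by Hoxd9 at -0.73 (SE 0.45), Hoxc5 (1450832_at) at -0.42 (SE 0.26), Hoxd8 on 1433638_s_at as given above and the second Hoxa3 probe set, 1427433_s_at, at -0.36 (SE 0.29). Of the 11 genes with several probe sets, 5 (Hoxa5, Hoxa9, Hoxb3, Hoxc6 and Hoxd8) had 1 direction on all of them and 6 (Hoxa3, Hoxa4, Hoxa10, Hoxb4, Hoxc5 and Hoxd13) had both.

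Spread between arrays moved with the level. The highest of the 6 signals was a median of 1.71 times the lowest for the 8 probe sets above background and 5.38 times for the 29 at background on every array. Of those 8, 1 had the same sign in 3 repeats, Hoxd8 on 1433638_s_at, and of those 29, 10 did. No share over all probe sets is given beside these counts, so no contrast is read from them. The 4 Hox probe sets with an unadjusted p under 0.05 in the limma fit without the block were Hoxd1, Hoxb7, Hoxd10 and Hoxc9. With the block, Hoxc9 was not among them (limma unadjusted p = 0.0621), and Hoxb4 on 1451761_at was (0.0351). None of these was above background on all 6 arrays, although Hoxc9 exceeded it on 2 knockdown arrays. The part that background noise has in their values was not tested.

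Partners and regulators of Hox proteins were given from lists, each gene by its brightest probe set. Of the TALE cofactors, homeodomain proteins that bind DNA together with Hox proteins, and their partner Pbxip1, 7 of 9 measured genes were above background on all arrays, among them Pbx2, Pbx3, Pknox1, Pknox2, Meis2 and Meis3, and 2 had higher and 7 lower values. Pbx3 differed by -0.22 (SE 0.15), Pknox1 by -0.37 (SE 0.28), Pbx4, at background on every array, by 0.56 (SE 0.44) and Meis1 by -0.30 (SE 0.26). Of 24 measured Polycomb genes, which keep Hox clusters silent, 21 were above background, and 9 had higher and 15 lower values. Ezh1, a histone methyltransferase gene, differed by -0.39 (SE 0.17), the reader gene Cbx6 by 0.39 (SE 0.17), Phf19 by -0.19 (SE 0.13) and Cbx2 by 0.20 (SE 0.15). Of 17 trithorax-type genes, which keep Hox clusters active, 12 were above background, and 3 had higher and 14 lower values. Aff4, of the elongation complex, differed by -0.62 (SE 0.24), Dot1l by -0.34 (SE 0.20), Aff1 by -0.47 (SE 0.32) and Psip1 by -0.29 (SE 0.26). Over all probe sets 45.8% had higher values. With dim probe sets left out, the median difference over all the others was -0.056. The direction of these lists and of those below was not tested.

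Signals upstream of Hox genes, such as Cdx factors and retinoic acid, were mostly at background, with 14 of 22 measured genes above it on no array. Cyp26a1, which breaks down retinoic acid, differed by 0.78 (SE 0.42), the activin receptor gene Acvr2b by -0.46 (SE 0.27), Zbtb16 by -0.42 (SE 0.25) and Cdx1 by 0.50 (SE 0.30). Of 10 ParaHox and related genes 8 were at background on every array and 1, Meox1, was above it on all, at -0.22 (SE 0.14). The others with the smallest p were Pdx1 at -0.83 (SE 0.40), Gsx2 at 0.80 (SE 0.39) and Gbx1 at 0.49 (SE 0.38), each at background on every array. Of 15 measured homeobox genes of pituitary development 4 were above background on all arrays and 8 had higher values. Hesx1, an early pituitary repressor that exceeded the background on 1 array, differed by 1.29 (SE 0.41), Lhx4, at background on every array, by -1.07 (SE 0.37), Six2 by 0.44 (SE 0.19) and Six6 by -0.27 (SE 0.14). Of 13 measured genes described as Hox targets 9 had higher values, with Fgf10 at 1.02 (SE 0.39), Ccnd1 at 0.71 (SE 0.29), Six2 as given and Fgf2 at -0.66 (SE 0.40). Fgf10 and Fgf2 were at background on every array, while Ccnd1 and Six2 were above it on all. No gene of any of these lists passed the threshold in either limma fit. At an unadjusted p under 0.05 in the fit without the block there were 0 TALE, 2 Polycomb, 1 trithorax, 0 upstream, 0 ParaHox, 3 pituitary homeobox and 3 target genes, against 4.25% of all probe sets. With the block these counts were 0, 2, 2, 1, 0, 4 and 4, against 6.47% of all probe sets.

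The label of the cells was checked on marker genes. Of 10 corticotroph markers 9 were above background on all arrays, with Pomc at 9229 ± 1974 in the control and 8443 ± 2553 in the knockdown (SD, n = 3), and Avpr1b was at background on every array. Among genes of other sources, 1 of 8 for other pituitary lineages (Gata2), 2 of 9 for fibroblasts (Twist1 and Col1a2), 3 of 9 for leukocytes (Lyz2, Adgre1 and Csf1r) and 0 of 6 for endothelium were above background on all arrays, while Pdgfrb, Ptprc and Fshb exceeded it on none. Some exceeded it on part of the arrays. Of other pituitary lineages, Lhb did so on 5 arrays, Gh on 3, and Prl and Tshb on 1 each. Kdr, of endothelium, did so on 3 and Cd68, of leukocytes, on 1. Summed fibroblast signals were 282 to 317 in the control and 305 to 344 in the knockdown, those of leukocytes 524 to 579 and 492 to 609, and those of endothelium 95.1 to 128 and 122 to 159. All 6 endothelial genes had positive differences, with Pecam1, Cdh5, Tek, Emcn and Vwf at background on every array, and the part of such cells in the results was not tested. The markers of other cell types with the smallest p were Pdgfra, of fibroblasts, at 1.26 (SE 0.48, unadjusted p = 0.0269) and Itgam, of leukocytes, at 1.11 (SE 0.46, unadjusted p = 0.0369), both with a limma adjusted p of 1.00. Each was higher in 3 of 3 repeats and exceeded the background on no array. Median deposited signals were 19.8 to 36.3 per array, and 3 arrays per group limit the precision of every value.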

How the data were processed

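Total RNA of 6 samples was hybridised to 1 Affymetrix mouse array each. The deposited table holds linear intensities per probe set, which the authors made with GCOS per the submitters' processing notes; the sources used here do not give its settings. Gene symbols came from the platform annotation of the array. Each array was scaled to a common median of log2 signal, and 5.29, the 20th percentile of the deposited intensities, was added before taking log2. Such differences are smaller than true changes where signals are low. All 45037 probe sets other than 64 controls were fitted with limma 3.58.1 in R 4.3.3 (trend, two-sided, Benjamini-Hochberg over all of them, threshold 0.05), so every member has a value; 25 of 48 Hox probe sets reach the 40th percentile of mean signal (16.8). The fit was tested on simulated data.

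The main fit had no block. The design text describes 3 independent rounds of the whole procedure, and the repeat numbers of the titles pair the arrays. Over all probe sets, deviations of same-numbered arrays correlated at 0.0897, 0.148 and 0.153, and those of different numbers at -0.121 to -0.0146. Above the filter, same-numbered arrays correlated at 0.173, 0.231 and 0.257. Deviations were taken from the mean of each group, which ties these correlations together. The range for different numbers is therefore no independent reference. No 2 arrays held identical values.

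Probe sets named singly were Dnmt1, Hox probe sets above background on all arrays or past the threshold, the 6 in each direction with the smallest p, and the 4 genes with the smallest p of each list. Hoxa7, Hoxa10, Hoxa11 and others outside this rule were named after their values were seen. Members and lists were chosen with earlier results of these data known. Confidence intervals come from limma. Alternatives changed the scaling, pseudocount, filter, trend, block, background percentile, cross-hybridising probe sets (_x_at and _s_at) and single arrays.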

Additional observations from a re-analysis of the deposited data

How the results depend on the processing

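The count of Hox probe sets past the limma threshold was 0 under all 16 alternatives, the replicate block among them (0 calls). On its brightest probe set Dnmt1 differed by -1.79 to -1.26 over the arrays left out in turn. The call of that probe set changed only with the 40th percentile filter and the replicate block together (-1.54, limma adjusted p = 0.0211). This alternative was chosen after the data were seen. The count over all probe sets was 1 with the replicate block, 1 with trimmed mean scaling and 23 with the filter and block, of which 0 were Hox probe sets. Paired values changed no Hox call.

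The median Hox difference was 0.093 with trimmed mean scaling, 0.057 with quantile normalization, 0.060 without scaling, 0.061 and 0.026 with the pseudocount at the 5th and 40th percentile, 0.11 with the filter, with or without the replicate block, and 0.050 without cross-hybridising probe sets. It ran from -0.032 to 0.10 over arrays left out. The medians of all probe sets under the 3 other scalings were 0.019, -0.0033 and -0.0041, so scaling moved them by less than 0.1.

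Hox probe sets above background numbered 5 without cross-hybridising probe sets, still for the same 5 genes, and 5 with the 99th percentile of receptor probe sets, for Hoxa5, Hoxc10 and Hoxd8. They numbered 8 to 9 over arrays left out, 10 against the array median and 11 when 3 arrays sufficed. No Hoxb gene was among them under any of these background settings; the genes were not listed for arrays left out. Parted Hox probe sets numbered 9 to 13 over arrays left out, where fewer arrays have to be parted. There were 13 without knockdown array 2, and 10 each without knockdown array 1, control array 2 or control array 3. How many of all probe sets are parted with an array left out was not counted. These counts therefore have no reference, and no rise can be read from them.

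Small differences changed sign: Hoxd8 on 1431099_at to 0.00069 with quantile normalization, and over arrays left out it ran from -0.21 to 0.030. Single arrays also moved differences that kept their sign: Hoxa5 on 1448926_at ran from 0.0039 without control array 1 to 0.62 without control array 2, Hoxa9 on 1421579_at from 0.0073 without control array 1 to 0.56 without control array 3, and Hoxc9 from 0.78 without knockdown array 2 to 1.72 without knockdown array 1. Of those that changed sign, Hoxc10 ran from -0.30 to 0.062, Hoxa5 on 1443803_x_at from -0.018 to 0.36 and Hoxc6 on 1427362_x_at from -0.0083 to 0.28.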

Other observations

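Antisense and host transcripts of the Hox clusters lie outside the membership rule and were read from the same fit, chosen after their values were seen. Hoxb5os, a noncoding transcript annotated beside Hoxb5 and Hoxb6, was above background on all 6 arrays, although no Hoxb gene was. It read 96.6, 119 and 125 on control arrays 1 to 3 and 60.1, 83.4 and 88.0 on knockdown arrays 1 to 3. The groups did not overlap, and the difference was -0.54 (SE 0.21), lower in 3 of 3 repeats (-0.64, -0.49 and -0.48). The limma adjusted p was 1.00 without the block and 0.701 with it, with unadjusted p of 0.0293 and 0.0105. Hoxb5 itself exceeded the background on no array and differed by 0.21 (SE 0.21), and Hoxb6 by -0.31 (SE 0.34).

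Evx2, the homeobox gene beside Hoxd13, exceeded the background on 5 of 6 arrays and differed by -0.28 (SE 0.35). The probe sets of Hoxa11os, Hoxd3os1 and Evx1os were above background on no array. Of the 2 probe sets annotated to both Hoxd4 and Hoxd3, 1421537_at exceeded the background on 2 arrays and 1450209_at on none.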
